A study of Homo sapiens with 9 samples.

Results

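The tumour necrosis factor (TNF) superfamily was examined in MDA-MB-231 cells that had survived the ferroptosis inducers erastin or RSL3. Its members were selected by gene name among the protein-coding genes of the deposited count files, which gave 46 of 58735 genes, 17 ligands and 29 receptors. A fold change was computed only for members with at least 10 counts in at least 3 libraries, so the measured counts decided that 27 members have one and 19 do not. The family was taken up with the large rise of TNFSF15 in the RSL3 survivors already known. That rise is described here without a test of its own, and the counts of calls with RSL3 survivors below include it.

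MDA-MB-231 is an established triple-negative breast cancer line, and all 9 libraries came from it. The 3 groups were vehicle (DMSO), cells that survived increasing amounts of erastin (erastin-R), and cells that survived increasing amounts of RSL3 (RSL3-R), with 3 libraries each. Erastin blocks the cystine/glutamate antiporter system xc-, and RSL3 blocks the lipid peroxide reductase GPX4. The doses, the time of harvest and whether drug was still present were not given in the labels. The survivors are selected populations of 1 line, so a difference can lie in which cells survived or in their RNA, and in bulk RNA fewer cells of a kind and less RNA per cell cannot be told apart. Nothing states that the 3 libraries of a group came from separate cultures, so the p-values measure the spread between these libraries, which may be technical.

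TNF superfamily ligands are mostly trimeric type II membrane proteins that act on the cell surface or after being shed, and each binds 1 or several receptors of the family. Death domain receptors such as FAS and the TRAIL receptors can assemble a caspase-8 complex, decoy receptors bind ligand without passing on a full death signal, and most of the others recruit TRAF adaptors and activate NF-κB. In breast cancer cells the family is best known for TRAIL- and FAS-dependent killing and for inflammatory signalling, and many of its ligands are made chiefly by activated immune and endothelial cells.

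Total counts were 15405102 to 17273464 per library. At these totals 3 counts, taken as the limit of detection, corresponded to 0.174 to 0.195 CPM (counts scaled to a common library size). The CPM of genes were scaled by a normalized library size instead. The correlation of log expression across genes was 0.986 to 0.992 within groups and 0.959 to 0.973 between them. Markers of the line (VIM, CD44, EGFR, AXL, ANXA1 and CAV1) were all expressed, with a summed level of 3977 to 4219 CPM over the 9 libraries. Within that sum CAV1 fell in erastin-R cells (log2 fold change -1.14, adjusted p 1.47e-09 from edgeR), and the other 5 lay within 2-fold of vehicle in both survivors. The hormone receptor genes ESR1 and PGR had 1 to 12 and 0 to 2 counts.

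Of the 27 members tested in erastin-R against vehicle cells, 1 rose and 5 fell past both limits, a Benjamini-Hochberg adjusted p (padj) under 0.05 in edgeR's quasi-likelihood test and a log2 fold change (log2FC) of at least 1 either way, where 6.69% of all 16330 genes tested were called higher and 6.71% lower. In RSL3-R against vehicle cells 3 members rose, TNFSF15 among them, and 2 fell, where 6% and 4.08% of all genes were called higher and lower. RSL3-R cells were compared directly with erastin-R cells as well, and 5 members, TNFSF15 among them, were higher and 0 lower. Of all genes 6.88% were called higher there and 3.5% lower. The count of 0 lower is edgeR's, and DESeq2 gave 0 as well. In edgeR 4 members were lower at an unadjusted p under 0.05, and the same number at a padj under 0.05, with a smaller fold change, and quantile normalization called 3 of them (FAS, TNFRSF11A and TNFSF12) past both limits. The median log2FC of the 27 members was -0.19 for the erastin survivors and 0.23 for the RSL3 survivors, beside medians of -0.0044 and 0.0053 over all genes tested. The comparisons with vehicle share their 3 vehicle libraries, so their values are given side by side only.

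The genes that differed most between the survivors were the ligands TNFSF15 and TNFSF18 and the receptor TNFRSF9. TNFSF15 (TL1A) is the ligand of death receptor 3, TNFSF18 (GITRL) is the ligand of GITR, a receptor on T cells, and TNFRSF9 (4-1BB) is a costimulatory receptor of activated T cells. The RefSeq sequences upstream of these genes in GRCh38.p14 are shown because these are the members with the largest differences. They are written 5′ to 3′ on the minus strand and end at the base before the RefSeq start of the gene, with capitals for the motif matches described after them.

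TNFSF15: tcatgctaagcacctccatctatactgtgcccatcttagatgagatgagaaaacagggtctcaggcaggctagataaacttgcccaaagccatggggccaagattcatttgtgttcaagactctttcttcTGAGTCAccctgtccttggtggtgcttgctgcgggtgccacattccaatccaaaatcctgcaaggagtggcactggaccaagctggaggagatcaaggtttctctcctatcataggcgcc
TNFSF18: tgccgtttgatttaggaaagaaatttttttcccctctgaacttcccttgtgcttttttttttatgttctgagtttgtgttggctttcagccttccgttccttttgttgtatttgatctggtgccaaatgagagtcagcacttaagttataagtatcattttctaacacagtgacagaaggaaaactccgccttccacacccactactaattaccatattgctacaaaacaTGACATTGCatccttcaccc
TNFRSF9: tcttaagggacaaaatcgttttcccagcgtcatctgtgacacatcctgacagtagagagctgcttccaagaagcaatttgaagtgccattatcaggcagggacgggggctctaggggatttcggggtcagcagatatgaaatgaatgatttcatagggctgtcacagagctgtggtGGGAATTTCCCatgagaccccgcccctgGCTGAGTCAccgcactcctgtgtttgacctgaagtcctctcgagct

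The TNFSF15 sequence lies at chr9:114792531-114792780. Its RefSeq start is 13596 bases inside the gene as the count files delimit it (chromosome 9, 114784635 to 114806126, minus strand), so it belongs to a shorter transcript, and counts per gene do not show which start was used. Its capitals mark an AP-1 motif (TGANTCA, a palindrome for which a match on one strand is a match on both), 120 to 114 bases before the start. TGANTCA was found in 6.57% of the 35116 RefSeq promoters of this length.

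The TNFSF18 sequence, chr1:173050942-173051191, ends 22 bases from the 5′ end of the gene in the files (chromosome 1, 173039960 to 173050963, minus strand). It holds 1 match to the core of the antioxidant response element (TGACNNNGC, either strand), 20 to 12 bases before the start, a motif found in 10.9% of the promoters. The TNFRSF9 sequence, chr1:7940840-7941089, precedes a RefSeq start 2326 bases inside the gene in the files (chromosome 1, 7915894 to 7943165, minus strand). Its first run of capitals holds overlapping κB matches on the plus and minus strands (GGG and CC around 5 free letters), 74 to 64 bases before the start, and the second an AP-1 match at 44 to 38 that overlaps a reverse antioxidant response element match at 46 to 38. The κB motif was found in 54.4% of the promoters. None of the 3 sequences held TGATGNAA, a core of the ATF4 element, or TATAAA, which 3.14% and 10.7% of the promoters held. These matches describe letters only, and binding was not measured.

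TNFSF15 (ENSG00000181634) had 25, 19 and 26 counts in the vehicle libraries, 13, 13 and 10 in the erastin-R libraries, and 1361, 1432 and 1668 in the RSL3-R libraries. Every RSL3-R library therefore lay far above every other library, and every erastin-R library below every vehicle library. The mean level was 1.42 ± 0.223 CPM (SD, n = 3) in vehicle, 0.736 ± 0.115 in erastin-R and 91.4 ± 5.25 in the RSL3-R group. The level in RSL3-R cells was 63.9-fold that in vehicle, the value with which the family was chosen. In erastin-R cells the log2FC was -0.95 (standard error, SE, 0.23, padj = 0.00301 from edgeR), just under the fold threshold. No exon of TNFSF15 overlaps another annotated gene.

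TNFSF18 (ENSG00000120337) had 37, 39 and 39 counts in vehicle, 12, 15 and 9 in erastin-R and 387, 407 and 443 in RSL3-R libraries. The 3 groups did not overlap, and the vehicle libraries stood between the survivors. Mean levels were 2.34 ± 0.116, 0.739 ± 0.205 and 25.4 ± 0.463 CPM (SD, n = 3). TNFSF18 fell in erastin-R cells, with a log2FC of -1.66 (SE 0.21, padj = 1.97e-05), and rose in RSL3-R cells, with a log2FC of 3.44 (SE 0.14, padj = 2.52e-10). Between the survivors the difference was 5.09 on the log2 scale (SE 0.16, padj = 1.36e-10 from edgeR).

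The receptor of TNFSF18, TNFRSF18 (GITR), had 0 to 4 counts per library, at or near the limit of detection. The ligand genes next to them on the genome were measured as well. TNFSF4 (OX40L), 132.8 kb from TNFSF18, had mean levels of 2.18 ± 0.403, 2.05 ± 0.510 and 3.13 ± 0.232 CPM (SD, n = 3), and its log2FC values of -0.08 and 0.52 did not pass the test. FASLG, 373.1 kb from TNFSF18 on the other side, had 0 to 4 counts. TNFSF8 (CD30L), 87.2 kb from TNFSF15, had 0, 1 and 0 counts in vehicle, 0 in every erastin-R and 3, 4 and 5 in the RSL3-R libraries, too few for a fold change here.

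TNFRSF9 (ENSG00000049249) had 15, 13 and 6 counts in vehicle, 0, 2 and 0 in erastin-R and 52, 35 and 25 in RSL3-R libraries. The groups were in the same order as for TNFSF18 and did not overlap. Mean levels were 0.689 ± 0.280, 0.0424 ± 0.0735 and 2.33 ± 0.956 CPM (SD, n = 3). It fell in erastin-R cells (log2FC -3.85, SE 0.87, padj = 0.00188) and rose in RSL3-R cells (log2FC 1.74, SE 0.44, padj = 0.00478). The difference between the survivors was 5.58 (SE 0.71, padj = 2.47e-05 from edgeR). Outside the RSL3-R group too few libraries reached 10 counts, so TNFRSF9 met the count filter only through the group where it is highest. Its rise in RSL3-R cells and the difference between the survivors are therefore given as descriptions only. The erastin-R level rests on 2 counts in all: the ratio of vehicle to erastin-R was 16.9 with a 95% counting interval of 4.34 to 145.4, and that of RSL3-R to erastin-R was 56.3 with an interval of 15.2 to 470.5. Without erastin-R replicate 2 both remaining erastin-R libraries were at 0, and against a floor of 3 counts over them TNFRSF9 was at least 7.66-fold higher in vehicle and in RSL3-R libraries at least 25.5-fold higher. The fitted log2FC values without that library, -6.52 against vehicle and 8.25 between the survivors, depend on the prior count.

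**Figure D1:**
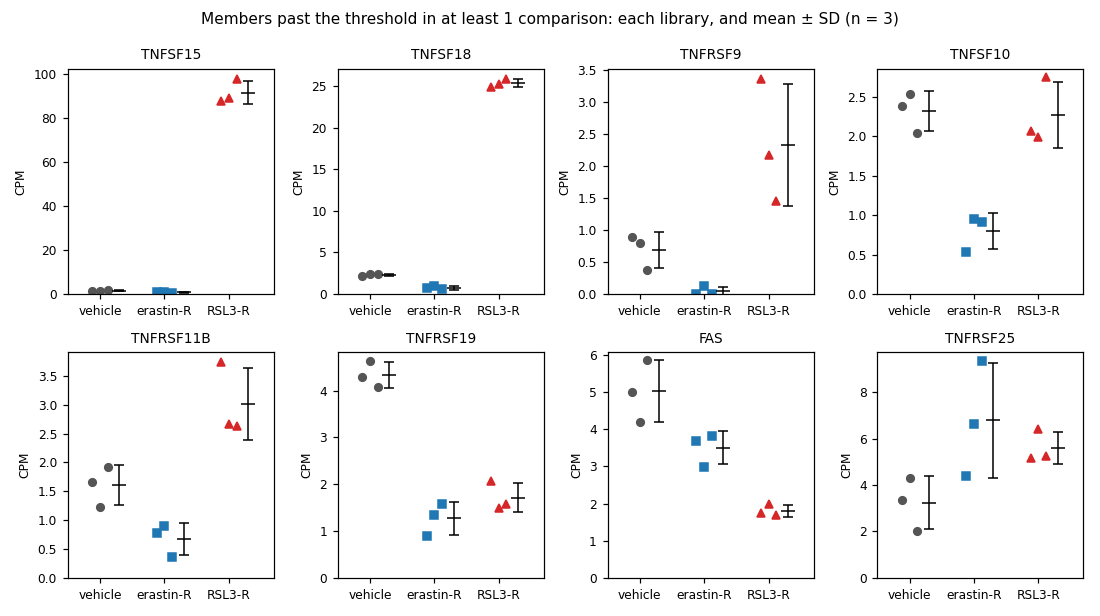
Level in CPM (vertical axes, linear, from 0, scaled per gene) of the 8 members past the threshold in at least 1 comparison, in each of the 3 vehicle, 3 erastin-R and 3 RSL3-R libraries (symbols), with the mean and SD beside them. TNFSF15 and TNFSF18 reach 91.4 and 25.4 CPM in RSL3-R cells and stay under 3 CPM elsewhere, whereas TNFSF10 is low only in the erastin-R libraries and TNFRSF19 in both survivors.

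TNFSF9 (4-1BBL), the ligand of TNFRSF9, had the highest level per kilobase of exon among the ligands in vehicle cells. Its levels were 12.8, 11.4 and 11.0 CPM in vehicle, 12.7, 16.9 and 17.7 in erastin-R and 18.8, 23.8 and 19.97 in RSL3-R libraries. The RSL3-R libraries were above all others, and the lowest erastin-R library was within the vehicle range. The log2FC was 0.43 in erastin-R (SE 0.14, padj = 0.0179) and 0.83 in RSL3-R cells (SE 0.14, padj = 0.00019), both under the fold threshold.

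TNFSF10 (TRAIL, ENSG00000121858; chromosome 3, 172505508 to 172523507, minus strand), the ligand of the death receptors DR4 and DR5, was low in erastin-R cells. It had 2.38, 2.53 and 2.04 CPM in vehicle, 0.536, 0.954 and 0.911 in erastin-R and 2.06, 1.99 and 2.75 in RSL3-R libraries. The erastin-R libraries lay below all others, and the RSL3-R and vehicle libraries overlapped. TNFSF10 fell in erastin-R cells (log2FC -1.53, SE 0.29, padj = 0.000494) and had a log2FC of -0.03 in RSL3-R cells (SE 0.25, padj = 0.934). The difference between the survivors was 1.5 (SE 0.29, padj = 0.000711 from edgeR).

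Among the other ligands TNFSF12 (TWEAK) had opposite signs in the survivors, under the fold threshold. Its mean level was 7.33 ± 1.23 CPM in vehicle, 9.997 ± 1.44 in erastin-R and 5.15 ± 0.461 in the RSL3-R group (SD, n = 3), with log2FC values of 0.45 (padj = 0.0257) and -0.51 (padj = 0.0197), and the survivors differed by -0.96 (padj = 0.000243 from edgeR). TNFSF13 (APRIL) and TNFSF13B (BAFF), which act on B cells, had mean levels of 1.76 to 2.05 and 0.588 to 0.782 CPM over the 3 groups and passed no test. The read-through gene TNFSF12-TNFSF13 shares 29.4% of the exon bases of TNFSF12 and 55.5% of those of TNFSF13. It had at most 3 counts in any library. Reads on the shared bases may have been assigned to neither gene, so the counts of TNFSF12 and TNFSF13 are uncertain.

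The other 9 ligands did not reach the count filter. CD40LG and TNFSF11 (RANKL) had 0 counts in all 9 libraries. TNF had 0 or 1 count, CD70 and TNFSF14 (LIGHT) 0 to 3, FASLG 0 to 4 and TNFSF8 0 to 5. The lymphotoxins were just outside the filter: LTA had 0 to 12 counts and reached 10 in 2 libraries, and LTB had 1, 0 and 1 counts in vehicle, 8, 1 and 7 in erastin-R and 12, 8 and 8 in RSL3-R libraries, reaching 10 in 1. Just inside it, TNFRSF9 reached 10 counts in 5 libraries, which included every RSL3-R library, and TNFSF13B had 7 to 16.

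The 4 TRAIL receptors of the TNFRSF10 group form a cluster on chromosome 8 and ranged from among the most abundant members (TNFRSF10B) to about 1 CPM (TNFRSF10C). TNFRSF10B (DR5) carries the death domain, and its levels were 201, 190 and 184 CPM in vehicle, 229, 246 and 248 in erastin-R and 312, 318 and 311 in RSL3-R libraries. The groups did not overlap, and RSL3-R cells were the highest. The log2FC was 0.33 (padj = 0.000262) in erastin-R and 0.71 (padj = 2.54e-07 from edgeR) in RSL3-R cells, under the fold threshold in both.

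TNFRSF10A (DR4), the other death receptor for TRAIL, had 38.3, 35.4 and 36.4 CPM in vehicle, 26.4, 26.5 and 25.5 in erastin-R and 37.9, 42.6 and 39.4 in RSL3-R libraries. Only in the erastin-R libraries were all levels under the vehicle range. The log2FC was -0.49 (padj = 0.000106) in erastin-R and 0.12 (padj = 0.198) in RSL3-R cells, and the survivors differed by 0.61 (padj = 2.06e-05 from edgeR). DR4 and DR5 thus had opposite signs in erastin-R cells, both below 2-fold.

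The decoy TNFRSF10D (DcR2), whose death domain is truncated, had 87.4, 78.2 and 79.3 CPM in vehicle, 88.9, 98.9 and 94.1 in erastin-R and 137, 135 and 135 in RSL3-R libraries. The RSL3-R libraries stood above the rest. The log2FC was 0.20 (padj = 0.0175) in erastin-R and 0.73 (padj = 6.30e-07 from edgeR) in RSL3-R cells. The decoy TNFRSF10C (DcR1), which has no death domain, had 0.716, 0.926 and 1.05 CPM in vehicle, 0.596, 0.573 and 1.15 in erastin-R and 1.61, 0.808 and 1.69 in RSL3-R libraries, and passed no test. Of its exon bases 39.3% lie in other annotated genes of the same strand, so its counts are uncertain.

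TNFRSF11B (osteoprotegerin, ENSG00000164761), a secreted decoy for RANKL and TRAIL, followed the order of TNFSF18. It had 1.67, 1.24 and 1.91 CPM in vehicle, 0.774, 0.891 and 0.365 in erastin-R and 3.74, 2.67 and 2.63 in RSL3-R libraries, with no overlap between groups. TNFRSF11B fell in erastin-R cells (log2FC -1.24, SE 0.35, padj = 0.0082), but without erastin-R replicate 3 the fold change was -0.94 (padj = 0.0361) and the call was lost. In RSL3-R cells the log2FC was 0.90 (SE 0.29, padj = 0.0182), under the fold threshold. The survivors differed by 2.14 (SE 0.33, padj = 0.000107 from edgeR). TNFRSF6B (DcR3), the decoy for TL1A and FAS ligand, had 0 counts in every library, but all its exon bases lie within the read-through gene RTEL1-TNFRSF6B, which had 166 to 346 counts, so reads on it could not be assigned to it.

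FAS (ENSG00000026103; chromosome 10, 88990582 to 89015785, plus strand), the death receptor for FAS ligand, was lowest in RSL3-R cells. It had 5.01, 4.20 and 5.86 CPM in vehicle, 3.69, 2.99 and 3.83 in erastin-R and 1.74, 1.99 and 1.69 in RSL3-R libraries. The groups did not overlap. FAS fell in RSL3-R cells (log2FC -1.47, SE 0.20, padj = 3.80e-05), and its log2FC in erastin-R cells was -0.52 (SE 0.18, padj = 0.0288). The padj in erastin-R cells stayed under 0.05 in 9 of 15 alternative analyses, and DESeq2 gave 0.0561. The survivors differed by -0.95 (SE 0.21, padj = 0.0018 from edgeR). On the opposite strand ACTA2, with at most 19 counts, overlaps 8.94% of the exon bases of FAS.

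TNFRSF25 (DR3, ENSG00000215788; chromosome 1, 6460786 to 6466195, minus strand), the death receptor bound by TNFSF15, was higher in both survivors. It had 3.34, 4.32 and 2.04 CPM in vehicle, 4.41, 6.62 and 9.36 in erastin-R and 5.16, 6.40 and 5.26 in RSL3-R libraries. The vehicle libraries were below the rest, the highest by a narrow margin, and the survivors overlapped. TNFRSF25 rose in erastin-R cells (log2FC 1.07, SE 0.28, padj = 0.00511), and the call was lost without vehicle replicate 3 (0.83, padj = 0.0294) or without erastin-R replicate 3 (0.76, padj = 0.0319). Its log2FC in RSL3-R cells was 0.79 (SE 0.28, padj = 0.0326), and the survivors differed by -0.28 (padj = 0.405 from edgeR). Its exons overlap ESPN on the opposite strand, which had at most 31 counts, over 8.94% of their bases. PLEKHG5, on the same strand and with up to 373 counts, overlaps 2.43% of them.

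Of the remaining death domain receptors, TNFRSF1A and TNFRSF21 were abundant. TNFRSF1A (TNFR1), the main receptor of TNF, had mean levels of 194 ± 4.36, 154 ± 11.6 and 181 ± 6.75 CPM (SD, n = 3), and its log2FC was -0.33 in erastin-R (padj = 0.000582) and -0.10 in RSL3-R cells (padj = 0.228). TNFRSF21 (DR6) had 163 ± 6.58, 142 ± 10.1 and 172 ± 2.54 CPM, with log2FC values of -0.20 (padj = 0.0179) and 0.08 (padj = 0.351 from edgeR). EDAR, the ectodysplasin receptor, had 0 to 6 counts and the neurotrophin receptor NGFR 0 to 5.

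**Figure D2:**
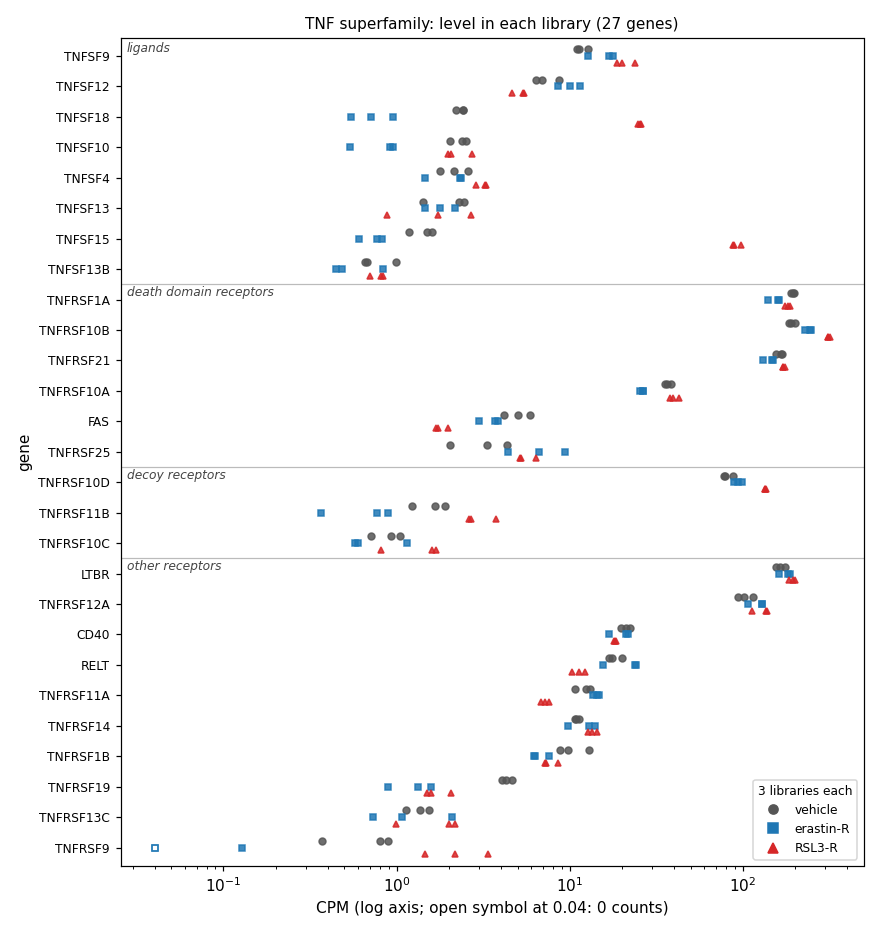
Level of the 27 tested members in each library (horizontal axis, CPM on a log scale; circles vehicle, squares erastin-R, triangles RSL3-R, 3 libraries each), grouped by role and ordered by the vehicle mean. The TRAIL receptor TNFRSF10B, TNFRSF1A, TNFRSF21 and LTBR lie above 100 CPM in all libraries, and TNFSF15 and TNFSF18 show the widest gaps between RSL3-R and the other libraries among ligands.

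TNFRSF19 (TROY, ENSG00000127863; chromosome 13, 23570370 to 23676104, plus strand), a receptor best known in the nervous system and as a Wnt target, was lower in both survivors. It had 4.29, 4.63 and 4.07 CPM in vehicle, 0.893, 1.34 and 1.58 in erastin-R and 2.06, 1.49 and 1.58 in RSL3-R libraries. All survivor libraries lay below all vehicle libraries, and the survivors overlapped. TNFRSF19 fell in erastin-R cells (log2FC -1.77, SE 0.24, padj = 2.69e-05) and in RSL3-R cells (log2FC -1.34, SE 0.23, padj = 0.000241). The survivors differed by 0.43 (SE 0.26, padj = 0.197 from edgeR).

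TNFRSF11A (RANK), the receptor of RANKL, and RELT were lower in RSL3-R cells, by less than the fold threshold. TNFRSF11A had mean levels of 12.1 ± 1.26, 14.2 ± 0.565 and 7.21 ± 0.379 CPM (SD, n = 3), with log2FC values of 0.24 (padj = 0.0883) and -0.74 (padj = 0.000158). RELT had 18.2 ± 1.69, 21.1 ± 4.74 and 11.3 ± 1.0 CPM, with log2FC values of 0.22 (padj = 0.234) and -0.69 (padj = 0.00218 from edgeR). Between the survivors the differences were -0.98 (padj = 1.50e-05) and -0.90 (padj = 0.000263), close to the fold threshold. TNFRSF1B (TNFR2) was lower in both survivors by a smaller amount, with log2FC values of -0.64 (padj = 0.00378) and -0.45 (padj = 0.0288).

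TNFRSF12A (FN14), the TWEAK receptor, and LTBR, the lymphotoxin beta receptor, were abundant in every group, at 104 to 129 and 165 to 193 CPM on average. TNFRSF12A had log2FC values of 0.23 (padj = 0.0615) and 0.32 (padj = 0.0156). LTBR had 0.11 (padj = 0.225) and 0.23 (padj = 0.0163), and 6.72% of its exon bases are overlapped by SCNN1A on the opposite strand. CD40, TNFRSF14 (HVEM) and TNFRSF13C (BAFF receptor) passed the test in neither comparison with vehicle, with log2FC values of -0.09 and -0.21, 0.15 and 0.30, and -0.06 and 0.35 in erastin-R and RSL3-R cells.

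Of the 7 other receptors without a fold change, EDA2R and TNFRSF13B (TACI) had 0 counts throughout. TNFRSF17 (BCMA) and TNFRSF4 (OX40) had at most 1 count, and TNFRSF18 and TNFRSF8 (CD30) at most 4. CD27 was just outside the filter with 0 to 13 counts and 2 libraries at 10 or more, and 37.0% of its exon bases overlap the antisense gene CD27-AS1. With the strand setting of the counting not given, reads of such antisense partners cannot be told apart from those of the member.

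At an adjusted p under 0.05 alone, 5 members were higher and 11 lower in erastin-R cells, where 26.9% and 26.7% of all genes were, and 10 were higher and 6 lower in RSL3-R cells, where 23.6% and 24.7% of all genes were. By role, all 6 tested death domain receptors passed that limit in erastin-R cells, 2 higher and 4 lower. In RSL3-R cells 2 were higher, 1 lower and 3 did not pass. Not all of these held under the 15 alternative analyses. In erastin-R cells FAS passed in 9 of them and TNFRSF21 in 12, and in RSL3-R cells TNFRSF25 passed in 11. Of the 3 tested decoys, 1 was higher and 1 lower in erastin-R and 2 were higher in RSL3-R cells, and of the 8 tested ligands 2 were higher and 3 lower in erastin-R and 3 higher and 1 lower in RSL3-R cells.

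**Figure D3:**
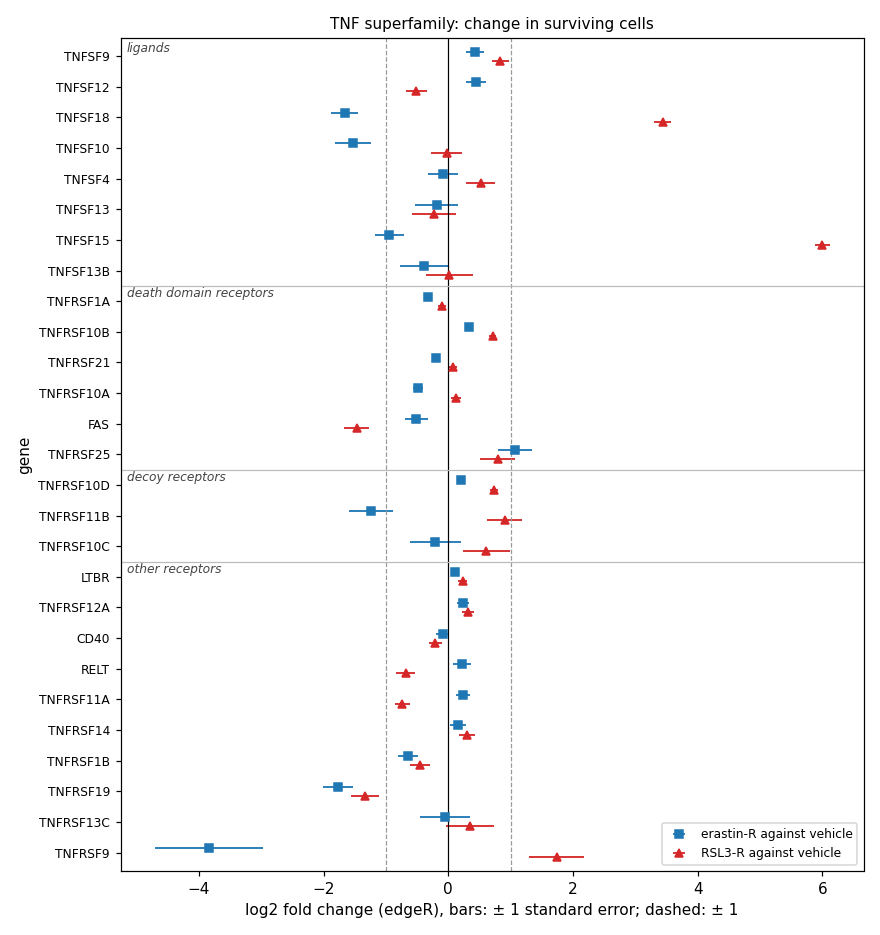
Log2FC (horizontal axis) with 1 SE of the 27 tested members in erastin-R (squares) and RSL3-R (triangles) against the same 3 vehicle libraries; dashed lines mark the fold threshold of 1. TNFSF18 and TNFRSF9 lie on opposite sides of 0 in the survivors (-1.66 and 3.44, -3.85 and 1.74), and TNFRSF19 lies left of -1 in both.

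Levels were compared between genes as CPM per kilobase of exon (RPKM), computed from the counts. In vehicle cells the receptors TNFRSF12A (56.0), TNFRSF1A (48.4), TNFRSF21 (45.3) and TNFRSF10B (37.2) led the 27 tested members, and the highest ligand was TNFSF9 at 7.03, in place 9. TNFSF15 stood at 0.180 in place 26 of 27 in vehicle cells. In RSL3-R cells the ligands TNFSF18 (12.6), TNFSF9 (12.5) and TNFSF15 (11.6) stood beside each other in places 8 to 10, whereas TNFRSF10B (60.8) was second to TNFRSF12A (69.8). TNFRSF25, the receptor of TNFSF15, was at 0.755 in vehicle, 1.59 in erastin-R and 1.31 in the RSL3-R group. The ligand was thus below its receptor per length in vehicle and erastin-R cells and above it in RSL3-R cells.

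Downstream of the receptors, a list of 26 adaptors, kinases and ubiquitin enzymes was fully expressed. In RSL3-R against vehicle cells 1 of them was called, where 6% of all genes were called higher and 4.08% lower. In erastin-R against vehicle cells 0 were called, where 6.69% and 6.71% of all genes were. Between the survivors the same gene was called, where 6.88% and 3.5% of all genes were. RBCK1 (HOIL-1), a subunit of the linear ubiquitin ligase complex LUBAC, had 110, 112 and 108 CPM in vehicle, 184, 216 and 214 in erastin-R and 478, 510 and 483 in RSL3-R libraries. The groups were well apart. RBCK1 rose in RSL3-R cells (log2FC 2.15, SE 0.07, padj = 6.90e-11) and had a log2FC of 0.89 in erastin-R cells (padj = 1.17e-07 from edgeR). The other LUBAC subunits went the other way in RSL3-R cells under the fold threshold, RNF31 (HOIP) with -0.36 (padj = 0.00567) and SHARPIN with -0.42 (padj = 0.00967).

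At an adjusted p under 0.05 alone, 10 of the 26 were higher and 6 lower in erastin-R cells (26.9% and 26.7% of all genes were), and 6 were higher and 7 lower in RSL3-R cells (23.6% and 24.7% of all genes). The death domain kinase RIPK1 had -0.96 in erastin-R (padj = 1.28e-06) and -0.23 in RSL3-R cells (padj = 0.0463). MAP3K14 (NIK), the kinase of the non-canonical NF-κB pathway, had -0.96 (padj = 2.43e-06) and -0.72 (padj = 3.67e-05). FADD, the adaptor of FAS and the TRAIL receptors, had -0.57 (padj = 0.00155) and -0.88 (padj = 6.81e-05 from edgeR). Among the genes that were higher in both survivors, CYLD had 0.53 (padj = 2.8e-05) and 0.54 (padj = 2.57e-05).

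Of 10 genes that carry out or restrain receptor-driven death, 9 were tested, and RIPK3, the necroptosis kinase, had 0 to 6 counts. At a padj under 0.05 alone, 2 of the 9 were higher and 2 lower in erastin-R cells, beside 26.9% and 26.7% of all genes. In RSL3-R cells 3 were higher and 2 lower, beside 23.6% and 24.7%. CASP6, an effector caspase, had mean levels of 17.5, 11.5 and 8.79 CPM, with log2FC values of -0.61 (padj = 0.000479) and -0.99 (padj = 9.98e-06), under the fold threshold. The initiator CASP8 had -0.69 in erastin-R (padj = 1.73e-05) and 0.09 in RSL3-R cells (padj = 0.428), and its inhibitor CFLAR (FLIP) had 0.20 (padj = 0.0108) and 0.38 (padj = 9.84e-05 from edgeR). XIAP was higher in both survivors, with 0.53 (padj = 2.3e-05) and 0.57 (padj = 1.5e-05).

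By edgeR none of 5 genes that shed or process the ligands passed both limits. Of all genes 6.69% were called higher and 6.71% lower in erastin-R cells, and 6% and 4.08% in RSL3-R cells. At an adjusted p under 0.05 alone 3 were higher and 2 lower in erastin-R cells, beside 26.9% and 26.7% of all genes. In RSL3-R cells 4 were higher and 0 lower, beside 23.6% and 24.7%. ADAM17, the TNF-converting enzyme, had mean levels of 50.1, 64.7 and 96.7 CPM, with log2FC values of 0.37 (padj = 0.00152) and 0.95 (padj = 3.87e-07 from edgeR). FURIN, a proprotein convertase that cleaves several ligands, had 45.5, 83.9 and 80.3 CPM, with 0.88 (padj = 5.55e-07) and 0.82 (padj = 1.30e-06).

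**Figure D4:**
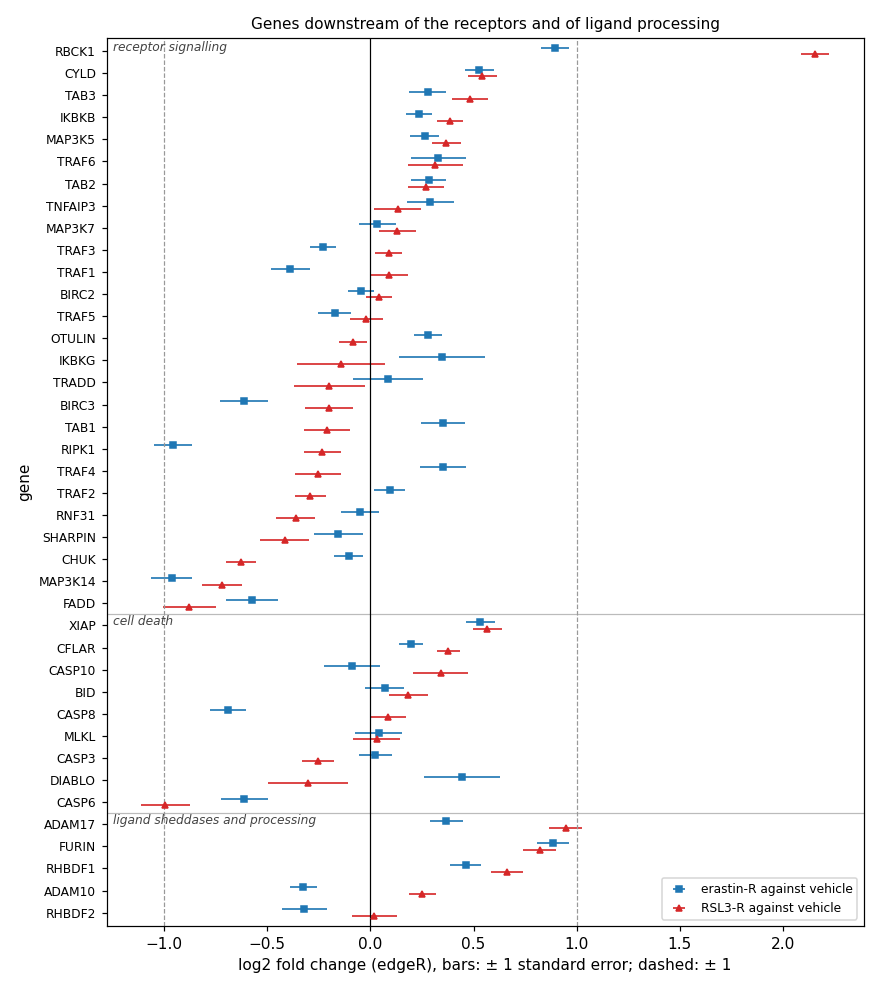
Log2FC (horizontal axis) with 1 SE of 40 genes of receptor signalling, cell death and ligand processing in erastin-R (squares) and RSL3-R (triangles) against the same vehicle libraries; dashed lines mark the fold threshold of 1. RBCK1 in RSL3-R cells (2.15) is the only point beyond the dashed lines.

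Leukocyte and endothelial cells make several of these ligands, and in each list only some markers differed from vehicle. The summed level of 9 leukocyte markers was 4.69 to 6.23 CPM in vehicle, 1.91 to 3.04 in erastin-R and 5.22 to 6.25 in RSL3-R libraries, and 2 of the 9 passed the filter. CD14 fell in erastin-R cells (-1.23, padj = 0.000314) and had -0.23 in RSL3-R cells (padj = 0.368). PTPRC (CD45), with 3 to 24 counts, rose in RSL3-R cells (1.67, padj = 0.00841 from edgeR) and had -0.29 in erastin-R cells (padj = 0.69). Neither passed the test against vehicle in both survivors. PTPRC met the count filter only through the RSL3-R libraries, where it is highest, so its rise there is given as a description only. The defining T and B cell genes CD3D, CD3E and MS4A1 had 0 to 4 counts, and no marker was at 0 in every library.

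The summed level of 4 endothelial markers was 18.4 to 22.5 CPM in vehicle, 10.8 to 12.6 in erastin-R and 22.4 to 25.7 in RSL3-R libraries, and 2 of the 4 passed the filter. PECAM1 (CD31), with 20 to 222 counts, fell in erastin-R cells (-2.47, padj = 7.88e-08) and had 0.36 in RSL3-R cells (padj = 0.0473 from edgeR). KDR passed neither comparison, and CDH5 and VWF had 0 to 6 counts. Of the markers listed as low in this line, CDH1 rose in RSL3-R cells (1.58, padj = 0.00129). ERBB2, from the same list, was not low here, at 62.0 to 93.3 CPM on average, and had -0.59 (padj = 1.15e-05). The part of these markers in the ligand and receptor values was not tested.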

How the data were processed

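RNA of 9 MDA-MB-231 libraries was selected with oligo(dT) and sequenced. The authors deposited, per library, a count per gene without normalization; per the paper's methods, uniquely mapped reads in exons were counted, and the submitters' processing notes name HISAT2 2.0.5 and featureCounts 1.5.0-p3. The strand setting is not given in the sources used here. The deposited FPKM values were not used here. All 58735 gene identifiers and coordinates equalled those of GENCODE release 29 (GRCh38). Groups came from the treatment labels.

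The 16330 genes with at least 10 counts in at least 3 libraries were fitted in R 4.3.3 with edgeR 4.0.16 (TMM, quasi-likelihood test, 1 model of 9 libraries, no covariate), with Benjamini-Hochberg adjustment over all of them. Adjusted p in the text are from this test, except where an alternative analysis is named with the value. Calls needed an adjusted p under 0.05 and an absolute log2FC of at least 1, as in the legend of the paper's heat map; the methods give a fold change over 2 with an unadjusted p from Cufflinks, which takes reads. edgeR estimated a common dispersion of 0.00733, which is a coefficient of variation of 8.56% between libraries of a group beyond counting error. CPM of genes were scaled by the summed counts of the tested genes times edgeR's TMM factor. Only the CPM of 3 counts was scaled by total count. Intervals and floors cover counting error only. Alternatives were edgeR's filterByExpr, no filter, DESeq2 1.42.0, quantile normalization with limma 3.58.1, a fit of the 6 libraries compared, a block for the replicate number, no minimum fold change and each library left out. Scripts were tested on simulated data.

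The members, gene lists, tests and naming rule (every member is named; list genes past both limits are named, with a few others chosen after their values were seen) were chosen with earlier results of these data known. RefSeq promoters matched 30 of the 46 members by symbol. In the gene lists, 2 genes are not reported here and were left out of the counts and sums.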

Additional observations from a re-analysis of the deposited data

Results flagged for a closer look

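RSL3-R and erastin-R cells were set against each other directly, and the values of 5 of the 27 tested members lay past both limits. Of all genes tested, 6.88% were called higher and 3.5% lower in this comparison. TNFSF15 differed by 6.94 on the log2 scale, a description, since its RSL3-R level was known when the family was chosen. TNFRSF9, which met the count filter only through the RSL3-R libraries, differed by 5.58, on 2 erastin-R counts. Without erastin-R replicate 2 it differed by 8.25, where the fitted value depends on the prior count and the bound against 3 counts is 25.5-fold. TNFSF18 differed by 5.09, with all erastin-R libraries below and all RSL3-R libraries above the vehicle libraries. TNFRSF11B differed by 2.14, and TNFSF10 by 1.5, the latter with RSL3-R and vehicle libraries that overlapped.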

How the results depend on the processing

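Of the 16 calls of members, those of TNFSF15 included, 14 remained under all 15 alternatives that kept both limits and 16 kept their sign. The exceptions were TNFRSF11B and TNFRSF25 in erastin-R cells, lost without the libraries named with them. Of 1215 values of members under these 15 alternatives, 1179 kept their direction and side of the threshold, 3 lost and 15 gained a call, and 18 changed sign. With no minimum fold change, 8761, 7883 and 7980 genes were called in erastin-R, RSL3-R and between the survivors, against 2188, 1646 and 1695, and 16, 16 and 16 members, against 6, 5 and 5. Quantile normalization called 8 members between the survivors, 5 higher and 3 lower, and over all genes 913 higher and 739 lower (55.3% higher), against 1123 and 572 (66.3%). Without a filter LTB was also called in erastin-R (2.77, padj = 0.022) and RSL3-R cells (3.59, padj = 0.000738 from edgeR), and TNFSF8, at 0 in every erastin-R library, between the survivors. With each library left out, 2002 to 2499, 1552 to 1719 and 1464 to 2062 genes and 4 to 7, 5 to 6 and 5 to 7 members were called.

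The sign changes concerned values that passed no test. With each library left out, the log2FC of CD40 in erastin-R cells ran from -0.16 to 0.014 (the latter without erastin-R replicate 1), of TNFSF4 from -0.21 to 0.11 (without erastin-R replicate 2) and of TNFRSF13C from -0.57 to 0.23 (without erastin-R replicate 3). In RSL3-R cells TNFSF10 ran from -0.16 to 0.072 (without RSL3-R replicate 1), TNFSF13 from -0.66 to 0.15 (without RSL3-R replicate 3) and TNFSF13B was -0.092 without vehicle replicate 1 and -0.18 with quantile normalization. Between the survivors TNFRSF25 ran from -0.51 to 0.028 (without erastin-R replicate 3) and TNFSF13 from -0.47 to 0.33 (without RSL3-R replicate 3). The cause was not tested.

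The mean correlation of same-numbered deviations from the group means was -0.00571 over 9 pairs, and 0.00293 over 18 pairs of different numbers. Deviations within a group sum to 0, which ties these means to each other. They therefore do not decide whether libraries with the same replicate number were paired. With the replicate block 2178, 1622 and 1674 genes and 6, 5 and 5 members were called. Depth limits the 19 members under the filter and the low members such as TNFRSF9, for which 3 counts were 0.174 to 0.195 CPM.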
